A study of Mus musculus with 12 samples.

Results

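The genes described here make and first trim the sugar chain that is attached to asparagine residues of proteins in the endoplasmic reticulum (ER), and supply 2 of the activated sugars it is built from. A list of 35 named genes was taken as given, of 53801 gene identifiers in the count tables, and all 35 passed the filter on low counts that left 15828 genes tested. They were measured in C2C12 cells, a line of mouse myoblasts, the precursors that fuse into muscle fibres. The 4 groups compared held 3 poly(A) RNA-seq libraries each. The Sh2-Thap group held cells with Cebpg knocked down and kept for 6 h in thapsigargin, and the Sh2-DMSO group held the same knockdown cells kept for 6 h in the solvent DMSO. The Ctrl-Thap and Ctrl-DMSO groups held control cells with the same treatments for 6 h. Thapsigargin blocks the SERCA calcium pump and empties the calcium store of the ER, which causes ER stress. The protein made from Cebpg, C/EBP gamma, is a leucine zipper factor that forms pairs with ATF4 among others, and the series addresses its part in transcription under stress.

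Protein N-glycosylation starts with a lipid, dolichol phosphate, on which enzymes of the Alg family build an oligosaccharide of N-acetylglucosamine, mannose and glucose, at first on the cytosolic face of the ER membrane and then in the lumen. The hexosamine pathway supplies UDP-N-acetylglucosamine from fructose 6-phosphate and glutamine, and another branch from the same hexose phosphate supplies GDP-mannose. After the oligosaccharide has been moved onto a protein, glucosidases trim its glucoses, and the trimmed forms are read by the ER lectins calnexin and calreticulin during folding.

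The sample titles name the knockdown by a single label, Sh2, and the construct of the control cells was not given in the sources used here. Off-target effects, and any stable difference between the populations that arose in another way, cannot be told apart from effects of the knockdown. The cell line and source fields give C2C12, but HeLa stands in the growth protocol. The 6 myoblast markers examined summed to at least 1098 counts per M gene reads (CPM) in every library. Their sum was 1226 ± 31.5 CPM in Sh2-Thap and 1149 ± 58.5 CPM in Sh2-DMSO libraries, and 1295 ± 37.7 CPM in Ctrl-Thap and 1594 ± 81.6 CPM in Ctrl-DMSO libraries (SD, n = 3 each), lowest in Sh2-DMSO. Single myoblast markers could change more than their sum. Log2 changes with the knockdown ran from -2.63 to 0.73 under thapsigargin and from -2.73 to 0.25 in DMSO. Those with thapsigargin ran from -1.22 to 2.5 in knockdown cells and from -2.66 to 2.03 in control cells. Summed markers of other cell types reached at most 26.2 CPM for leukocytes (mostly Cd14), 7.39 CPM for epithelium, 7.22 CPM for endothelium and 1.89 CPM for adipocytes. The epithelial sum was 6.95 ± 0.586 CPM in Sh2-Thap and 0.39 ± 0.0586 CPM in Sh2-DMSO libraries, and 2.75 ± 0.269 CPM in Ctrl-Thap and 0.222 ± 0.0745 CPM in Ctrl-DMSO libraries (SD, n = 3 each), with Epcam at 0 in all control libraries. The endothelial sum was 6.72 ± 0.575 CPM in Sh2-Thap and 0.752 ± 0.0915 CPM in Sh2-DMSO libraries, and 5.69 ± 0.989 CPM in Ctrl-Thap and 0.801 ± 0.239 CPM in Ctrl-DMSO libraries (SD, n = 3 each), higher with thapsigargin in both populations. The part of these marker sums in the results below was not tested. Libraries held 29.42 to 47.72 M gene reads, and no pair of replicates agreed within counting noise. The labels do not say that replicates were separate cultures, so p-values measure the spread between these libraries, and fewer cells cannot be told apart from less RNA per cell. Cebpg itself averaged 5.66 ± 0.419 CPM in Sh2-Thap and 4.51 ± 0.722 CPM in Sh2-DMSO libraries, against 216 ± 3.97 CPM in Ctrl-Thap and 54.6 ± 5.21 CPM in Ctrl-DMSO libraries (SD, n = 3 each). The chaperone gene Hspa5 rose with thapsigargin in knockdown cells (log2 change 3.05, SE 0.04, adjusted p = 2.09e-32) and in control cells (3.61, SE 0.05, adjusted p = 1.05e-34) by edgeR's quasi-likelihood test with Benjamini-Hochberg adjustment. All tests below are of this kind, run over all genes, with a call at an adjusted p under 0.05. Xbp1, another check of the stress, rose in both populations, but more in knockdown cells. Over alternative analyses its log2 change ran from 1.967 to 2.102 in knockdown cells and from 1.608 to 1.686 in control cells. The difference, knockdown minus control, ran from 0.307 to 0.494 for Xbp1 and from -0.584 to -0.403 for Hspa5. Levels are CPM, scaled for library composition by TMM factors.

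With thapsigargin 4 of the 5 hexosamine genes, all but the sparsely counted Gnpnat1, rose in both cell populations. The assembly genes moved in both directions in each, as did the genes tested as a whole. In knockdown cells 14 of the 35 members rose and 10 fell, and in control cells 18 rose and 13 fell. Over all genes tested, 35.4% rose and 34.4% fell in knockdown cells, and 37.7% rose and 37% fell in control cells. The share of members that rose was thus above the background in control cells and close to it in knockdown cells, and the share that fell was close to it in both. A rise of at least 1 on the log2 scale was called for 4 members in knockdown cells and for 7 in control cells, against 13.2% and 16.1% of all genes. Those of the knockdown cells were Alg2, Alg12, Gfpt2 and Gmppb. The same genes passed in control cells, with Gfpt1, Pgm3 and Gnpnat1. Of these, Gnpnat1 passed the filter on low counts mainly through Ctrl-Thap, so its call is no independent support. No member fell by that much, against 6.39% of all genes in knockdown cells and 10.2% in control cells.

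Read by function, the 10 sugar supply genes had a median log2 change of 0.49 in knockdown cells, with 6 that rose and 2 that fell, and of 0.88 in control cells, with 8 that rose and 1 that fell. The 22 genes of dolichol-linked assembly had a median of -0.05 in knockdown cells, with 7 that rose and 6 that fell, and of -0.12 in control cells, with 8 that rose and 11 that fell. Of the 3 trimming genes, 1 rose and 2 fell in knockdown cells, and 2 rose and 1 fell in control cells. The median over all genes tested was 0.00 in each cell population. The comparisons in knockdown cells and in control cells share no library. In both populations 13 members rose and 7 fell, Pmm1 and Prkcsh fell in knockdown cells and rose in control cells, and Mpdu1 rose in knockdown cells and fell in control cells. The falls of Pmm1 and Prkcsh in knockdown cells and of Mpdu1 in control cells were lost under 10, 5 and 7 of 22 alternatives. How many of all genes were called in both populations was not counted, so these joint counts have no background beside them. Alg3, Alg13 and Dpm1 passed in neither.

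**Figure D1:**
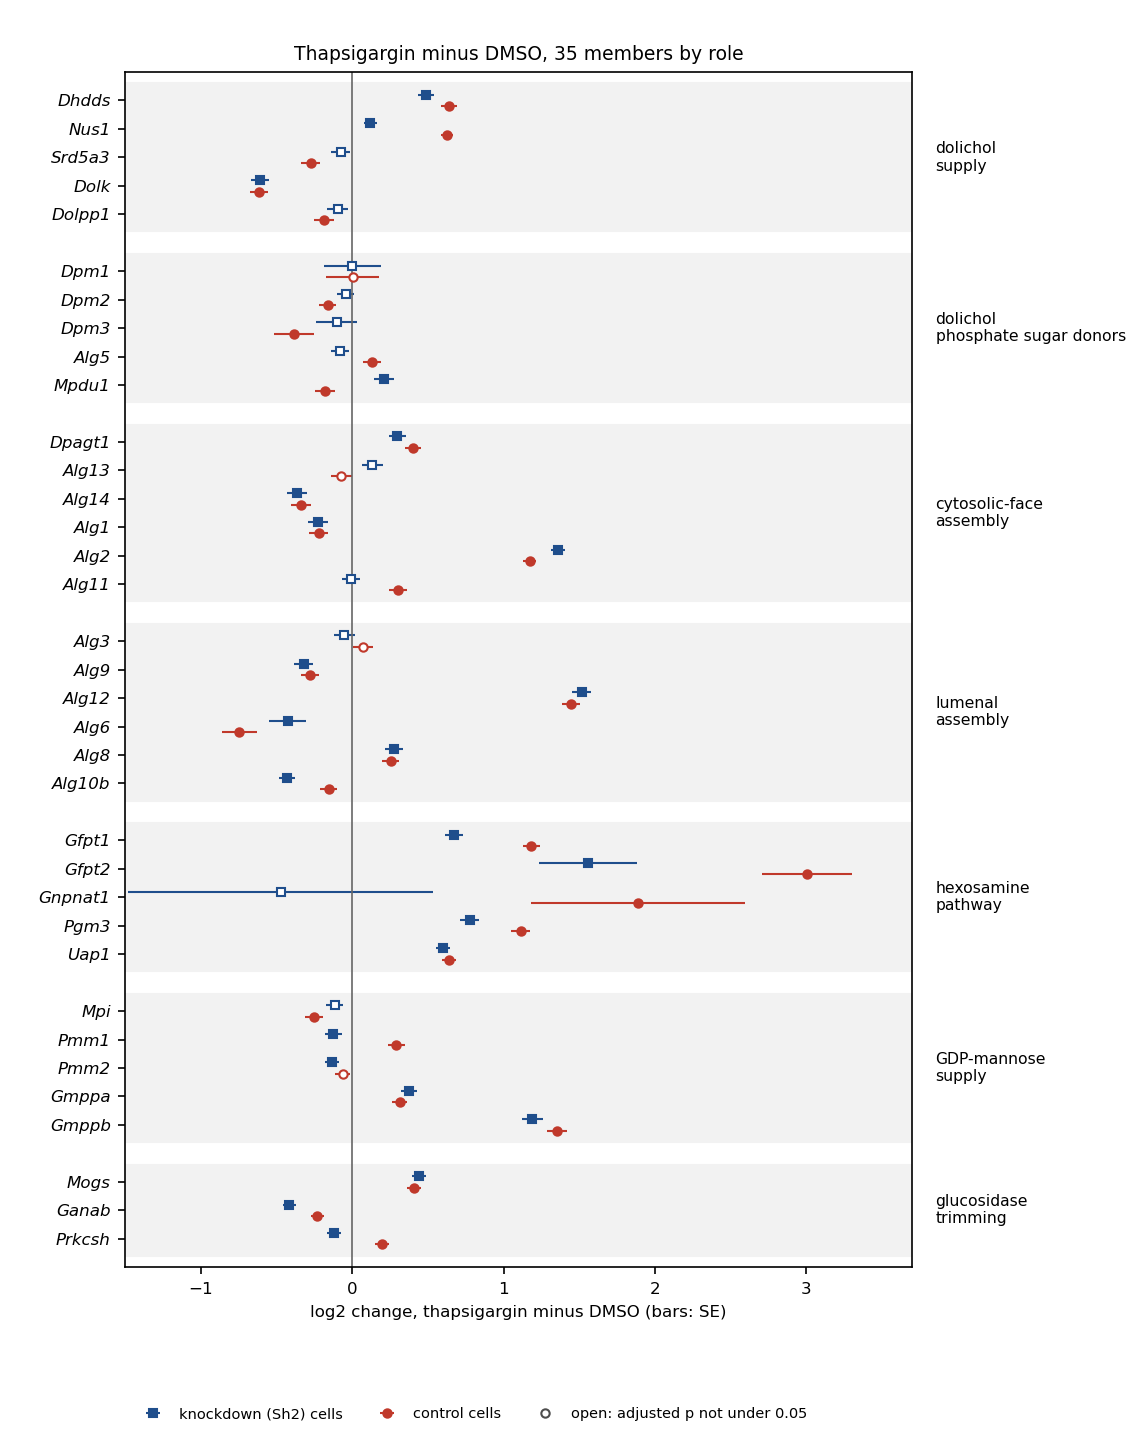
Log2 change with thapsigargin (thapsigargin minus DMSO) of the 35 members, grouped by role down the page; squares are knockdown cells and circles control cells, bars are the SE, and open symbols did not pass. The hexosamine genes Gfpt1, Gfpt2, Pgm3 and Uap1 lie right of 0 in both cell populations, as do Alg2, Alg12 and Gmppb, while Dolk, Alg6, Alg9, Alg14 and Ganab lie left of it.

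Knockdown cells held less RNA than control cells of Gfpt1, Pgm3 and Uap1 of the hexosamine pathway, of both GDP-mannose pyrophosphorylase genes and of several Alg genes, and more of Mpi and Pmm1, in either treatment. Under thapsigargin 6 members were higher and 19 lower in knockdown cells, against 28.5% higher and 28.4% lower of all genes. In DMSO 5 were higher and 15 lower, against 25% and 26.5% of all genes. Lower in both treatments were 14 members, namely Dhdds, Alg5, Alg1, Alg2, Alg11, Alg9, Alg12, Alg10b, Gfpt1, Pgm3, Uap1, Gmppa, Gmppb and Ganab, while Dpm2, Mpi and Pmm1 were higher in both. The share of all genes called in both treatments was not counted. The median log2 change of the members was -0.25 under thapsigargin and -0.14 in DMSO, beside 0.02 and 0.00 over all genes. A difference of at least 1 was called for 2 members, Gfpt2 and Gnpnat1, both lower under thapsigargin, a size that 5.96% of all genes reached in that direction. Gnpnat1 had few reads and passed the filter on low counts mainly through Ctrl-Thap, the group where it was highest. With library totals as the only scaling, 8 members were higher and 15 lower under thapsigargin, and of all called genes 66.6% were higher in place of 50.1%.

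**Figure D2:**
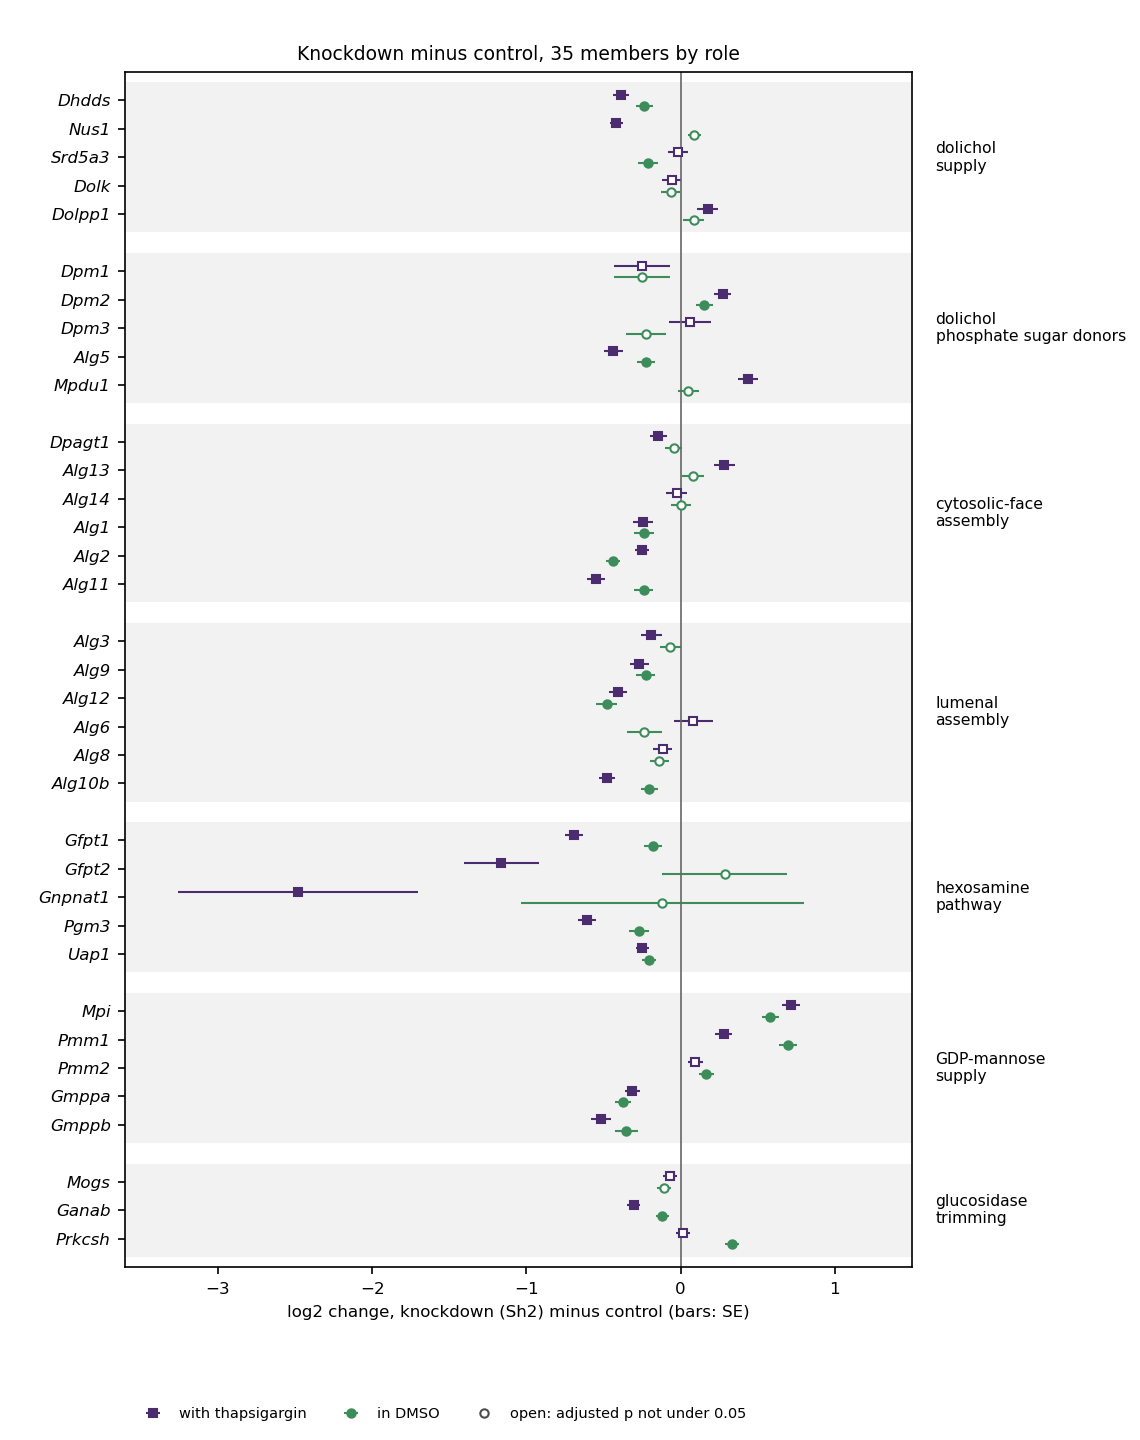
Log2 change with the knockdown (knockdown minus control) of the 35 members by role; squares are thapsigargin and circles DMSO, bars are the SE, and open symbols did not pass. Most called members lie left of 0, whereas Mpi and Pmm1 lie right of it in both treatments; Gfpt2 and Gnpnat1, whose counts are low, have the widest bars.

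The effect of thapsigargin itself differed between the cell populations for 12 members. It was lower in knockdown cells for 10, Nus1, Alg5, Alg11, Alg10b, Gfpt1, Gfpt2, Pgm3, Pmm1, Ganab and Prkcsh, and higher for Alg2 and Mpdu1, against 17.7% lower and 17.7% higher of all genes. Of the 13 members that rose in both populations, 4 were among the 10 (Nus1, Gfpt1, Gfpt2 and Pgm3), and 8 did not pass the test of the difference (Dhdds, Dpagt1, Alg8, Alg12, Uap1, Gmppa, Gmppb and Mogs). This split depended on the scaling: with library totals only, 5 members were lower and 11 higher, and of all called genes 75.6% were higher in place of 49.9%. Nus1, Gfpt1, Gfpt2, Pmm1 and Prkcsh were lower, and Alg2 and Mpdu1 higher, under that scaling too. The TMM factors behind the difference were 1.049 to 1.073 in Sh2-Thap libraries, whereas those of the other 9 libraries lay between 0.967 and 0.997. The count of higher members fell to 1 without Sh2-DMSO replicate 2 and without Ctrl-DMSO replicate 2.

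In the hexosamine pathway Gfpt1, Gfpt2, Pgm3 and Uap1 rose with thapsigargin in both populations. Gnpnat1, which had at most 29 reads in any library, passed in control cells only, by a call that several alternatives removed. The median log2 change of the 5 genes was 0.67 in knockdown cells and 1.18 in control cells. Under thapsigargin Gfpt1, Gfpt2, Pgm3 and Uap1 were lower in knockdown than in control cells, against 28.4% of all genes. Gnpnat1 was called lower too, but it passed the filter on low counts mainly through Ctrl-Thap, so its call adds no support. In DMSO 3 genes, Gfpt1, Pgm3 and Uap1, were lower, against 26.5% of all genes. The median of the 5 genes, Gnpnat1 included, was -0.69 under thapsigargin and -0.18 in DMSO. The summed level of the 5 genes was 316 ± 6.33 CPM in Sh2-Thap and 200.1 ± 11.9 CPM in Sh2-DMSO libraries, and 469 ± 3.96 CPM in Ctrl-Thap and 229 ± 12.2 CPM in Ctrl-DMSO libraries (SD, n = 3 each).

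Gfpt1 (ENSMUSG00000029992, chromosome 6, 87042846 to 87092197 on the plus strand in GRCm38) encodes glutamine:fructose-6-phosphate amidotransferase, the rate-limiting enzyme of the pathway. It stood at 200.1, 189 and 189.6 CPM in Sh2-Thap libraries, against 122, 110.4 and 130.5 CPM in Sh2-DMSO libraries. In control cells it stood at 310.3, 313 and 312 CPM with thapsigargin, against 138, 123 and 151 CPM with DMSO. Every thapsigargin library lay above every DMSO library of its own population, and the Ctrl-Thap libraries lay above all others, while Sh2-DMSO and Ctrl-DMSO overlapped. The rise was smaller in knockdown cells (log2 change 0.67, SE 0.06, adjusted p = 5.09e-11) than in control cells (1.18, SE 0.06, adjusted p = 1.25e-16), and the difference passed (-0.51, SE 0.08, adjusted p = 1.32e-05). Gfpt1 was lower in knockdown cells under thapsigargin (-0.69, SE 0.06, adjusted p = 3.39e-11). In DMSO the call (-0.18, SE 0.06, adjusted p = 0.0107) was lost without Sh2-DMSO replicate 2 (-0.12, adjusted p = 0.0853) and without Ctrl-DMSO replicate 3 (-0.11, adjusted p = 0.12).

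Gfpt2 encodes another form of the same amidotransferase and was among the least abundant members. Libraries of the Sh2-Thap group held 38, 28 and 55 reads, and those of Sh2-DMSO 8, 19 and 14 reads. Ctrl-Thap libraries held 99, 100 and 104 reads and Ctrl-DMSO libraries 11, 17 and 7 reads. In CPM these were 1.12, 0.907 and 1.61 with thapsigargin and 0.259, 0.5602 and 0.405 with DMSO in knockdown cells, and 3.18, 2.17 and 2.92 with thapsigargin and 0.3204, 0.487 and 0.202 with DMSO in control cells. The treatments did not overlap in either population, and the Sh2-Thap libraries all lay below the Ctrl-Thap libraries. Gfpt2 rose in knockdown cells (log2 change 1.56, SE 0.32, adjusted p = 7.91e-05) and in control cells (3.01, SE 0.30, adjusted p = 8.16e-11), and was lower in knockdown cells under thapsigargin (-1.16, SE 0.24, adjusted p = 0.000122). The difference of the effects passed (-1.45, SE 0.47, adjusted p = 0.0162), but not without Sh2-DMSO replicate 2 (-1.16, adjusted p = 0.0906) or without Ctrl-DMSO replicate 3 (-1.19, adjusted p = 0.0567).

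Pgm3 converts N-acetylglucosamine 6-phosphate to the 1-phosphate. Its levels were 27.1, 28.4 and 26.5 CPM in Sh2-Thap and 16.3, 15.4 and 16.2 CPM in Sh2-DMSO libraries, and 41.3, 43.3 and 40.1 CPM in Ctrl-Thap and 19.3, 18.99 and 19.4 CPM in Ctrl-DMSO libraries. The 4 groups did not overlap one another. Pgm3 rose in knockdown cells (log2 change 0.78, SE 0.06, adjusted p = 1.55e-12) and in control cells (1.11, SE 0.06, adjusted p = 2.02e-17). The difference was -0.34 (adjusted p = 0.00292), and -0.18, adjusted p = 0.101 with library totals only. It was lower in knockdown cells under thapsigargin (-0.61, SE 0.06, adjusted p = 1.27e-10) and in DMSO (-0.27, SE 0.07, adjusted p = 0.000932). Exons of Dop1a on the other strand cover 38.5% of its principal transcript, and the strand of the counting is not given, so part of its reads may belong to either gene.

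Uap1, which joins the sugar phosphate to UTP and so forms UDP-N-acetylglucosamine, averaged 94.9 ± 1.11 CPM in Sh2-Thap and 62.7 ± 2.29 CPM in Sh2-DMSO libraries, and 113 ± 3.12 CPM in Ctrl-Thap and 72.3 ± 1.67 CPM in Ctrl-DMSO libraries (SD, n = 3 each). It rose in knockdown cells (log2 change 0.60, SE 0.05, adjusted p = 2.92e-13) and in control cells (0.64, SE 0.05, adjusted p = 2.11e-14). The difference did not pass (-0.04, 95% interval -0.19 to 0.11). Gnpnat1, which acetylates glucosamine 6-phosphate, had only 8, 2 and 0 reads in Sh2-Thap and 9, 1 and 4 reads in Sh2-DMSO libraries, and 29, 28 and 8 reads in Ctrl-Thap and 1, 3 and 12 reads in Ctrl-DMSO libraries. In CPM these were 0.235, 0.0648 and 0, then 0.291, 0.0295 and 0.116 in the knockdown groups, and 0.932, 0.607 and 0.225, then 0.0291, 0.0859 and 0.347 in the control groups. All pairs of groups overlapped, and exons of Styx on the other strand cover 92.3% of its principal transcript, so its counts may leave out or include reads of either gene. Its rise in control cells (1.89, SE 0.71, adjusted p = 0.021) was lost without Ctrl-Thap replicate 1 (1.46, adjusted p = 0.0904), Ctrl-DMSO replicate 1 (1.41, adjusted p = 0.0804) or Ctrl-DMSO replicate 2 (1.62, adjusted p = 0.0808), and by DESeq2 (1.96, adjusted p = 0.0585). Gnpnat1 was lower in knockdown cells under thapsigargin (-2.48, SE 0.78, adjusted p = 0.00983). With so few reads elsewhere, it passed the filter on low counts mainly through Ctrl-Thap, where it was highest. Calls that set Ctrl-Thap apart are therefore no independent support for this gene.

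**Figure D3:**
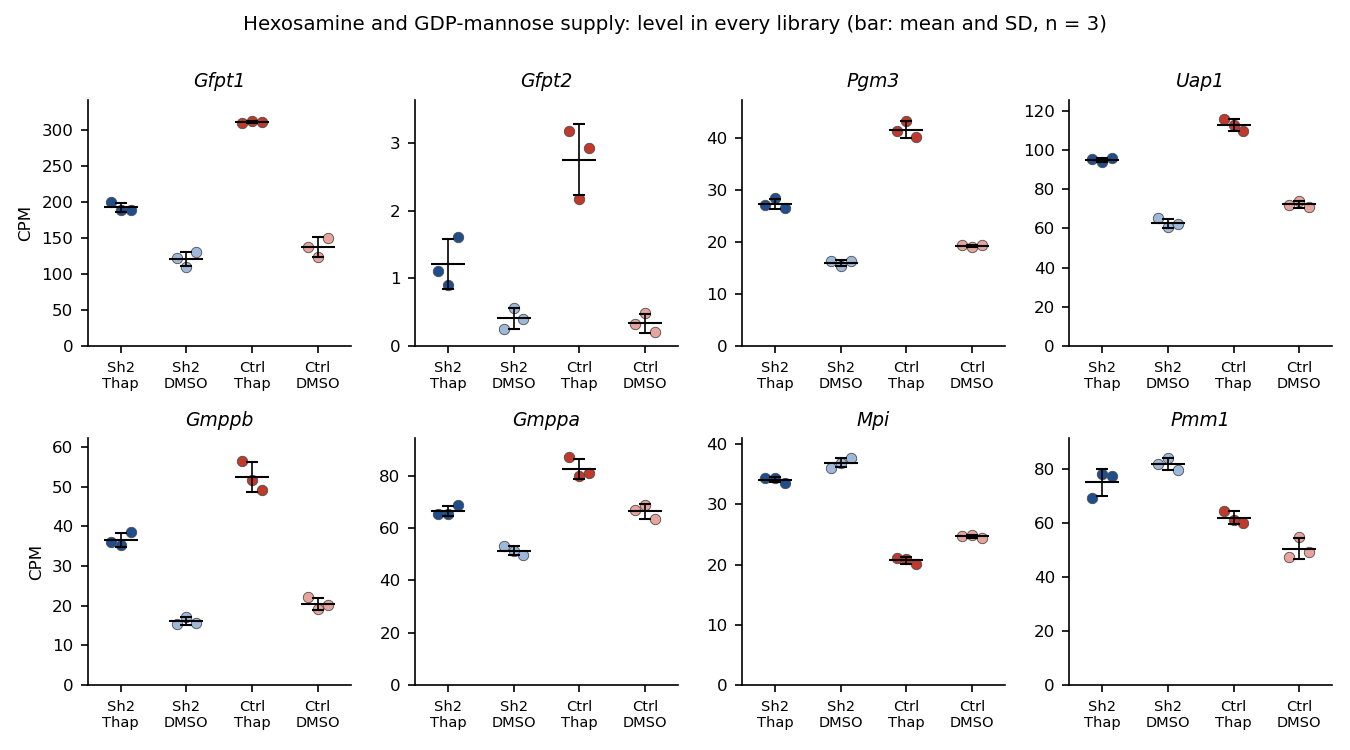
Level in CPM (linear axes from 0) of 8 sugar supply genes in every library, with Sh2-Thap, Sh2-DMSO, Ctrl-Thap and Ctrl-DMSO from left to right; points are libraries and bars the mean with SD (n = 3). Gfpt1, Gfpt2, Pgm3, Uap1 and Gmppb are highest in the Ctrl-Thap libraries, whereas Mpi and Pmm1 are higher in both knockdown groups than in either control group.

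The GDP-mannose branch was divided by step. The genes of the last step, GDP-mannose pyrophosphorylase, rose with thapsigargin and were lower in knockdown cells, while of the genes that make mannose phosphates Mpi and Pmm1 were higher in knockdown cells in both treatments and Pmm2 in DMSO. The summed level of the 5 genes was 268 ± 6.36 CPM in Sh2-Thap and 248 ± 4.45 CPM in Sh2-DMSO libraries, and 270.3 ± 10.8 CPM in Ctrl-Thap and 217 ± 4.59 CPM in Ctrl-DMSO libraries (SD, n = 3 each).

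Gmppb is the catalytic subunit of the pyrophosphorylase. It stood at 35.96, 35.3 and 38.5 CPM in Sh2-Thap and 15.4, 17.2 and 15.5 CPM in Sh2-DMSO libraries, and at 56.5, 51.7 and 49.05 CPM in Ctrl-Thap and 22.2, 19.2 and 20.1 CPM in Ctrl-DMSO libraries. No 2 groups overlapped. Gmppb rose in knockdown cells (log2 change 1.19, SE 0.07, adjusted p = 3.07e-16) and in control cells (1.35, SE 0.07, adjusted p = 1.26e-18). It was lower in knockdown cells under thapsigargin (-0.52, SE 0.06, adjusted p = 1.86e-08) and in DMSO (-0.35, SE 0.07, adjusted p = 0.000138). Exons of Rnf123 on the other strand cover 34.7% of its principal transcript. Gmppa, a regulatory subunit that restrains the enzyme, stood at 65.4, 65.3 and 68.7 CPM in Sh2-Thap and 53.1, 51.1 and 49.6 CPM in Sh2-DMSO libraries, and at 87.01, 79.9 and 80.97 CPM in Ctrl-Thap and 66.9, 68.97 and 63.4 CPM in Ctrl-DMSO libraries. Its Sh2-Thap libraries overlapped those of Ctrl-DMSO, and the treatments did not overlap within either population. Gmppa rose in knockdown cells (0.38, SE 0.05, adjusted p = 1.06e-07) and in control cells (0.31, SE 0.05, adjusted p = 1.17e-06), and was lower in knockdown cells in both treatments (-0.31 under thapsigargin, adjusted p = 2.53e-06, and -0.37 in DMSO, adjusted p = 2.64e-07).

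Mpi interconverts fructose 6-phosphate and mannose 6-phosphate and so draws on the same substrate as Gfpt1. It stood at 34.4, 34.3 and 33.6 CPM in Sh2-Thap and 36.1, 36.9 and 37.7 CPM in Sh2-DMSO libraries, and at 21.1, 21.01 and 20.03 CPM in Ctrl-Thap and 24.8, 24.9 and 24.4 CPM in Ctrl-DMSO libraries. Every knockdown library lay above every control library. Mpi was higher in knockdown cells under thapsigargin (log2 change 0.72, SE 0.06, adjusted p = 1.74e-12) and in DMSO (0.58, SE 0.06, adjusted p = 3.04e-10). Thapsigargin lowered Mpi in control cells (-0.25, SE 0.06, adjusted p = 0.000329), and the change in knockdown cells did not pass (-0.12, adjusted p = 0.0677).

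Pmm1 and Pmm2 are both phosphomannomutases, which turn mannose 6-phosphate into the 1-phosphate. Pmm1 stood at 69.3, 78.2 and 77.4 CPM in Sh2-Thap and 81.7, 84.1 and 79.6 CPM in Sh2-DMSO libraries, and at 64.5, 60.9 and 59.9 CPM in Ctrl-Thap and 47.5, 54.9 and 49.05 CPM in Ctrl-DMSO libraries. Again every knockdown library lay above every control library (log2 change 0.28, SE 0.06, adjusted p = 6.16e-05 under thapsigargin and 0.70, SE 0.06, adjusted p = 3.14e-12 in DMSO). Pmm1 rose with thapsigargin in control cells (0.29, SE 0.06, adjusted p = 2.83e-05), and the effects differed (-0.42, SE 0.08, adjusted p = 7.62e-05). Its small fall in knockdown cells (-0.13, SE 0.06, adjusted p = 0.0427) was lost under 10 of 22 alternatives, among them library totals only (-0.01, adjusted p = 0.928) and leaving out Sh2-Thap replicate 1 (-0.07, adjusted p = 0.267), Sh2-DMSO replicate 1 (-0.13, adjusted p = 0.0676) or Sh2-DMSO replicate 2 (-0.11, adjusted p = 0.0983). Pmm2 averaged 56.3 ± 0.505 CPM in Sh2-Thap and 61.8 ± 0.995 CPM in Sh2-DMSO libraries, and 52.8 ± 0.718 CPM in Ctrl-Thap and 55.1 ± 1.62 CPM in Ctrl-DMSO libraries (SD, n = 3 each). It was higher in knockdown cells in DMSO (0.17, SE 0.05, adjusted p = 0.00461) and fell in knockdown cells with thapsigargin (-0.13, SE 0.05, adjusted p = 0.0146), a call lost with library totals only (-0.01, adjusted p = 0.803).

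Among the genes that make the lipid carrier, both subunits of the enzyme that builds its chain rose with thapsigargin, while the kinase that activates dolichol fell. Dhdds and Nus1 together form cis-prenyltransferase, which strings isoprene units into the dolichol chain. Dhdds stood at 53.5, 54.1 and 57.4 CPM in Sh2-Thap and 37.5, 40.6 and 39.6 CPM in Sh2-DMSO libraries, and at 72.8, 72.7 and 69.98 CPM in Ctrl-Thap and 45.0, 44.3 and 49.3 CPM in Ctrl-DMSO libraries. No 2 groups overlapped. It rose in knockdown cells (log2 change 0.49, SE 0.05, adjusted p = 1.67e-09) and in control cells (0.64, SE 0.05, adjusted p = 1.16e-12), and was lower in knockdown cells under thapsigargin (-0.38, SE 0.05, adjusted p = 1.47e-07) and in DMSO (-0.24, SE 0.06, adjusted p = 0.00057). Nus1 stood at 168, 177 and 168 CPM in Sh2-Thap and 160.2, 155 and 158 CPM in Sh2-DMSO libraries, and at 236, 222 and 229 CPM in Ctrl-Thap and 151, 148 and 146 CPM in Ctrl-DMSO libraries. The Ctrl-Thap libraries lay far above all others. The rise of Nus1 was large in control cells (0.63, SE 0.04, adjusted p = 4.99e-15) and small in knockdown cells (0.12, SE 0.04, adjusted p = 0.0127), and the difference passed (-0.51, SE 0.06, adjusted p = 2.6e-08). The small rise was lost without Sh2-Thap replicate 2 (0.09, adjusted p = 0.0801) or Sh2-DMSO replicate 2 (0.10, adjusted p = 0.0567). Under thapsigargin Nus1 was lower in knockdown cells (-0.42, SE 0.04, adjusted p = 2.27e-10).

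Dolk, dolichol kinase, stood at 19.1, 19.3 and 19.03 CPM in Sh2-Thap and 30.3, 29.4 and 27.9 CPM in Sh2-DMSO libraries, and at 20.1, 20.4 and 19.2 CPM in Ctrl-Thap and 30.6, 30.9 and 30.2 CPM in Ctrl-DMSO libraries. The libraries parted by treatment and overlapped between the populations. Dolk fell in knockdown cells (log2 change -0.61, SE 0.06, adjusted p = 2.2e-10) and in control cells (-0.62, SE 0.06, adjusted p = 7.87e-11), and the knockdown itself did not pass in either treatment (95% interval -0.21 to 0.09 under thapsigargin and -0.20 to 0.07 in DMSO). Dolpp1, which recycles the dolichol pyrophosphate left after the oligosaccharide has been transferred, stood at 27.3, 24.2 and 24.1 CPM in Sh2-Thap and 28.8, 26.7 and 25.6 CPM in Sh2-DMSO libraries, and at 23.1, 23.2 and 20.6 CPM in Ctrl-Thap and 25.2, 24.9 and 26.2 CPM in Ctrl-DMSO libraries. It was higher in knockdown cells under thapsigargin (0.18, SE 0.07, adjusted p = 0.029), which did not hold without Sh2-Thap replicate 1 (0.11, adjusted p = 0.21) or Ctrl-Thap replicate 3 (0.12, adjusted p = 0.176). Its fall with thapsigargin in control cells (-0.19, SE 0.07, adjusted p = 0.0149) did not hold without Ctrl-Thap replicate 3 (-0.14, adjusted p = 0.0989). Srd5a3, a reductase of the last step of dolichol synthesis, averaged 22.6 CPM in Sh2-Thap and 23.9 CPM in Sh2-DMSO libraries, and 22.8 CPM in Ctrl-Thap and 27.7 CPM in Ctrl-DMSO libraries. It fell with thapsigargin in control cells (-0.28, SE 0.06, adjusted p = 0.000264) and was lower in knockdown cells in DMSO (-0.21, SE 0.06, adjusted p = 0.0062).

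The genes of the dolichol phosphate sugar donors had no log2 change larger than 0.44 in any comparison. Mpdu1, which is needed for the use of dolichol phosphate mannose and glucose, stood at 52.97, 53.1 and 52.7 CPM in Sh2-Thap and 46.5, 44.8 and 46.2 CPM in Sh2-DMSO libraries, and at 40.9, 42.8 and 33.3 CPM in Ctrl-Thap and 46.1, 45.3 and 41.3 CPM in Ctrl-DMSO libraries. The Sh2-Thap libraries lay above all others, and Ctrl-Thap overlapped Ctrl-DMSO. Mpdu1 rose with thapsigargin in knockdown cells (log2 change 0.21, SE 0.07, adjusted p = 0.00575), and was higher there than in control cells under thapsigargin (0.44, SE 0.07, adjusted p = 1.05e-06). The effects differed (0.39, SE 0.09, adjusted p = 0.00133). Its fall in control cells (-0.18, SE 0.07, adjusted p = 0.016) was lost without Ctrl-Thap replicate 3 (-0.08, adjusted p = 0.234), Ctrl-DMSO replicate 1 (-0.15, adjusted p = 0.0689) or Ctrl-DMSO replicate 2 (-0.15, adjusted p = 0.0786).

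Alg5, dolichol phosphate glucose synthase, stood at 44.1, 42.98 and 45.9 CPM in Sh2-Thap and 45.8, 51.95 and 43.1 CPM in Sh2-DMSO libraries, and at 60.7, 60.9 and 58.3 CPM in Ctrl-Thap and 56.7, 56.6 and 51.2 CPM in Ctrl-DMSO libraries. Under thapsigargin every knockdown library lay below every control library (log2 change -0.44, SE 0.06, adjusted p = 1.4e-07), and in DMSO the populations overlapped (-0.22, SE 0.06, adjusted p = 0.00212). The rise in control cells (0.13, SE 0.06, adjusted p = 0.0444) was lost without any 1 of Sh2-Thap replicates 1 and 2, Sh2-DMSO replicate 1, Ctrl-Thap replicates 1 and 2 and Ctrl-DMSO replicate 3, the last with the highest p (0.08, adjusted p = 0.275). The difference of the effects (-0.21, SE 0.08, adjusted p = 0.048) was lost under 13 of 21 alternatives. Among these were leaving out any 1 of the same 6 libraries or Sh2-DMSO replicate 2, the last with the highest p of them (-0.13, adjusted p = 0.209). Others were DESeq2 (-0.22, adjusted p = 0.0584), limma-voom (-0.21, adjusted p = 0.055) and library totals only (-0.05, adjusted p = 0.647). Of dolichol phosphate mannose synthase, the catalytic subunit Dpm1 averaged 2.34 CPM in Sh2-Thap and 2.36 CPM in Sh2-DMSO libraries, and 2.83 CPM in Ctrl-Thap and 2.79 CPM in Ctrl-DMSO libraries, and passed in no comparison. Another gene of the same strand, Gm20716, covers 39% of its principal transcript, so its count may leave out shared reads. The subunit Dpm2 averaged 42.6 ± 0.488 CPM in Sh2-Thap and 43.9 ± 0.917 CPM in Sh2-DMSO libraries, and 35.3 ± 1.04 CPM in Ctrl-Thap and 39.5 ± 2.21 CPM in Ctrl-DMSO libraries (SD, n = 3 each). It was higher in knockdown cells under thapsigargin (0.27, SE 0.06, adjusted p = 8.33e-05). The subunit Dpm3, at 3.88 CPM in Sh2-Thap and 4.17 CPM in Sh2-DMSO libraries and 3.72 CPM in Ctrl-Thap and 4.87 CPM in Ctrl-DMSO libraries, fell with thapsigargin in control cells (-0.39, SE 0.13, adjusted p = 0.00888), a call lost without Ctrl-Thap replicate 3 (-0.30, adjusted p = 0.0578) or Ctrl-DMSO replicate 2 (-0.30, adjusted p = 0.0745). The call of Dpm2 in DMSO (0.15, adjusted p = 0.0205) was lost without Sh2-DMSO replicate 3 (0.14, adjusted p = 0.0721), Ctrl-DMSO replicate 2 (0.13, adjusted p = 0.0837) or Ctrl-DMSO replicate 3 (0.14, adjusted p = 0.0623), and that in control cells (-0.16, adjusted p = 0.00887) without Ctrl-DMSO replicate 1 (-0.12, adjusted p = 0.0748).

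On the cytosolic face of the ER membrane, genes moved in both directions, as did the genes tested as a whole. Of the 6 genes, 2 rose and 2 fell with thapsigargin in knockdown cells, and 3 rose and 2 fell in control cells. Of all genes tested, 35.4% rose and 34.4% fell in knockdown cells, and 37.7% rose and 37% fell in control cells. Alg2, which adds mannoses after the first, changed most. It stood at 107, 109 and 110.3 CPM in Sh2-Thap and 43.1, 40.3 and 43.8 CPM in Sh2-DMSO libraries, and at 130.1, 131 and 128 CPM in Ctrl-Thap and 57.4, 57.02 and 58.04 CPM in Ctrl-DMSO libraries. No 2 groups overlapped. Alg2 rose in knockdown cells (log2 change 1.36, SE 0.05, adjusted p = 2.06e-22) and in control cells (1.17, SE 0.05, adjusted p = 2.27e-21), and was lower in knockdown cells under thapsigargin (-0.25, SE 0.04, adjusted p = 1.04e-05) and in DMSO (-0.44, SE 0.05, adjusted p = 2.81e-09). The rise was larger in knockdown cells (0.19, SE 0.07, adjusted p = 0.0242). That difference was lost without Sh2-Thap replicate 3 (0.17, adjusted p = 0.0569), Sh2-DMSO replicate 2 (0.15, adjusted p = 0.0858) or Ctrl-DMSO replicate 2 (0.17, adjusted p = 0.0533).

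Dpagt1, which starts the oligosaccharide by placing N-acetylglucosamine phosphate on the lipid and is the target of tunicamycin, averaged 60.6 ± 2.08 CPM in Sh2-Thap and 49.3 ± 3.17 CPM in Sh2-DMSO libraries, and 66.95 ± 1.62 CPM in Ctrl-Thap and 50.8 ± 2.497 CPM in Ctrl-DMSO libraries (SD, n = 3 each). It rose in knockdown cells (log2 change 0.30, SE 0.05, adjusted p = 1.31e-05) and in control cells (0.40, SE 0.05, adjusted p = 5.48e-08). Its lower level in knockdown cells under thapsigargin (-0.14, SE 0.05, adjusted p = 0.0208) was lost with library totals only (-0.01, adjusted p = 0.87), and without Sh2-Thap replicate 1 (-0.13, adjusted p = 0.0794), Sh2-Thap replicate 2 (-0.14, adjusted p = 0.0564) or Ctrl-Thap replicate 2 (-0.13, adjusted p = 0.0829). Alg13 and Alg14 form the enzyme of the next step, with Alg14 as its membrane anchor. Alg14 stood at 24.1, 25.02 and 23.96 CPM in Sh2-Thap and 33.4, 31.4 and 29.7 CPM in Sh2-DMSO libraries, and at 26.9, 24.6 and 23.04 CPM in Ctrl-Thap and 30.6, 30.6 and 32.9 CPM in Ctrl-DMSO libraries, so treatments were apart and populations overlapped. It fell in knockdown cells (-0.37, SE 0.07, adjusted p = 9.37e-06) and in control cells (-0.34, SE 0.07, adjusted p = 2.3e-05). Alg13 stood at 30.97, 32.05 and 27.3 CPM in Sh2-Thap and 26.6, 27.3 and 28.5 CPM in Sh2-DMSO libraries, and at 24.7, 25.5 and 23.9 CPM in Ctrl-Thap and 24.4, 25.03 and 28.6 CPM in Ctrl-DMSO libraries. It passed in 1 comparison, higher in knockdown cells under thapsigargin (0.28, SE 0.07, adjusted p = 0.000697).

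Alg1, which adds the first mannose, stood at 23.5, 23.4 and 22.7 CPM in Sh2-Thap and 27.9, 26.7 and 26.9 CPM in Sh2-DMSO libraries, and at 26.3, 28.1 and 28.1 CPM in Ctrl-Thap and 32.2, 29.6 and 34.4 CPM in Ctrl-DMSO libraries. Sh2-Thap was lowest and Ctrl-DMSO highest. It fell with thapsigargin in knockdown cells (log2 change -0.23, SE 0.06, adjusted p = 0.00233) and in control cells (-0.22, SE 0.06, adjusted p = 0.00199), and was lower in knockdown cells under thapsigargin (-0.25, SE 0.06, adjusted p = 0.0014) and in DMSO (-0.24, SE 0.06, adjusted p = 0.00187). With library totals only, the fall in knockdown cells (-0.11, adjusted p = 0.137) and the knockdown under thapsigargin (-0.11, adjusted p = 0.131) did not pass. Exons of Eef2kmt on the other strand cover 26.4% of its principal transcript. Alg11, which adds the last mannoses of the cytosolic face, stood at 29.4, 30.9 and 30.3 CPM in Sh2-Thap and 31.1, 28.6 and 31.5 CPM in Sh2-DMSO libraries, and at 45.4, 42.9 and 44.5 CPM in Ctrl-Thap and 36.4, 33.6 and 37.7 CPM in Ctrl-DMSO libraries. The knockdown groups overlapped each other, and the Ctrl-Thap libraries lay above all others. Alg11 rose in control cells (0.30, SE 0.06, adjusted p = 2.39e-05) and not detectably in knockdown cells (-0.01, 95% interval -0.15 to 0.13). The difference passed (-0.31, SE 0.08, adjusted p = 0.00379), but not with library totals only (-0.15, adjusted p = 0.155). Alg11 was lower in knockdown cells under thapsigargin (-0.55, SE 0.06, adjusted p = 1.03e-09) and in DMSO (-0.24, SE 0.06, adjusted p = 0.00109).

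In the lumen, Alg12 stood apart from the other 5 genes. Alg12 (ENSMUSG00000035845, chromosome 15, 88805244 to 88819318 on the minus strand in GRCm38) encodes a mannosyltransferase that uses dolichol phosphate mannose. It stood at 60.1, 52.2 and 58.4 CPM in Sh2-Thap and 19.4, 19.6 and 20.7 CPM in Sh2-DMSO libraries, and at 72.1, 74.4 and 80.04 CPM in Ctrl-Thap and 26.3, 29.3 and 27.6 CPM in Ctrl-DMSO libraries. No 2 groups overlapped. Alg12 rose in knockdown cells (log2 change 1.52, SE 0.06, adjusted p = 3.41e-20) and in control cells (1.44, SE 0.06, adjusted p = 1.54e-20), by amounts that did not differ detectably (0.07, 95% interval -0.13 to 0.27). It was lower in knockdown cells under thapsigargin (-0.41, SE 0.06, adjusted p = 2.46e-07) and in DMSO (-0.48, SE 0.07, adjusted p = 2.53e-07).

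The promoter of Alg12 is shown because it was the only one of the 30 members with a promoter window in RefSeq to hold a full ER stress response element, the sequence through which ATF6 and XBP1 act with NF-Y. Windows ran from 250 bases before to 50 after the start of the gene, and the element was searched on both strands as CCAAT, any 9 bases, then CCACG. It was found in 37 of 27025 genes (0.14%). Below are bases -250 to -151 from the start, in the direction of the gene (RefSeq, GRCm38.p6, chr15:88819469-88819568, minus strand), with the match at bases -220 to -202 in capitals.
Alg12 promoter: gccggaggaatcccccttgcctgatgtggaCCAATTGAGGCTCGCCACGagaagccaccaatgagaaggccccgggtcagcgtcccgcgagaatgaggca
The shorter form of the element, ATTGG, any base, then CCACG, was in no member's window and in 0.04% of genes, and the core TGACGTGG bound by XBP1 and ATF6 was in none, against 0.71% of genes. The element TGATGNAA of C/EBP and ATF pairs was likewise in no member's window, against 4.51% of genes, and TGACGTCA was in 1, Alg13, against 2.03%. Motifs were searched on both strands, and some letters can belong to more than one motif. Alg2, Gmppb, Alg11, Dpagt1 and Gnpnat1 had no window. A match is a description of these letters, and absence says only that they are not in this window.

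Alg3 and Alg9, the other lumenal mannosyltransferases, did not rise. Alg9 averaged 23.7 ± 1.07 CPM in Sh2-Thap and 29.6 ± 0.621 CPM in Sh2-DMSO libraries, and 28.5 ± 1.13 CPM in Ctrl-Thap and 34.6 ± 2.02 CPM in Ctrl-DMSO libraries (SD, n = 3 each). It fell with thapsigargin in knockdown cells (log2 change -0.32, SE 0.06, adjusted p = 3.71e-05) and in control cells (-0.28, SE 0.06, adjusted p = 0.000122), and was lower in knockdown cells under thapsigargin (-0.27, adjusted p = 0.00049, and -0.13, adjusted p = 0.0671 with library totals only) and in DMSO (-0.23, adjusted p = 0.00247). An antisense gene, 1110032A03Rik, covers 17.4% of its principal transcript. Alg3 averaged 24.3 ± 0.728 CPM in Sh2-Thap and 25.2 ± 2.12 CPM in Sh2-DMSO libraries, and 27.7 ± 1.49 CPM in Ctrl-Thap and 26.4 ± 1.32 CPM in Ctrl-DMSO libraries (SD, n = 3 each). Its only call, lower in knockdown cells under thapsigargin (-0.19, SE 0.07, adjusted p = 0.017), was lost without Sh2-Thap replicate 2 (-0.17, adjusted p = 0.0611), without Ctrl-Thap replicate 2 (-0.14, adjusted p = 0.119) and with library totals only (-0.06, adjusted p = 0.502).

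The 3 glucosyltransferases, which add glucoses in the order Alg6, Alg8 and Alg10b, went different ways. Alg8 stood at 37.99, 41.8 and 42.7 CPM in Sh2-Thap and 33.3, 33.7 and 34.3 CPM in Sh2-DMSO libraries, and at 43.9, 45.5 and 43.4 CPM in Ctrl-Thap and 36.3, 34.9 and 40.4 CPM in Ctrl-DMSO libraries. It rose in knockdown cells (log2 change 0.27, SE 0.06, adjusted p = 0.000166) and in control cells (0.25, SE 0.06, adjusted p = 0.000294), with no overlap of treatments in either. Alg10b stood at 136, 133 and 122 CPM in Sh2-Thap and 182, 164 and 182 CPM in Sh2-DMSO libraries, and at 189, 187 and 169.7 CPM in Ctrl-Thap and 201, 190.5 and 217 CPM in Ctrl-DMSO libraries. The Sh2-Thap libraries lay below all others. Alg10b fell in knockdown cells (-0.43, SE 0.05, adjusted p = 4.85e-08) and was lower in knockdown cells under thapsigargin (-0.48, SE 0.05, adjusted p = 1.06e-08) and in DMSO (-0.20, SE 0.05, adjusted p = 0.00229). Its smaller fall in control cells (-0.16, SE 0.05, adjusted p = 0.0104) was lost without Ctrl-Thap replicate 3 (-0.11, adjusted p = 0.075) or Ctrl-DMSO replicate 3 (-0.11, adjusted p = 0.0833). The difference of the effects (-0.27, SE 0.08, adjusted p = 0.00563) did not pass with library totals only (-0.12, adjusted p = 0.248). Alg6 averaged 6.55 ± 0.5196 CPM in Sh2-Thap and 8.82 ± 1.698 CPM in Sh2-DMSO libraries, and 6.16 ± 0.667 CPM in Ctrl-Thap and 10.4 ± 0.893 CPM in Ctrl-DMSO libraries (SD, n = 3 each). It fell in knockdown cells (-0.43, SE 0.12, adjusted p = 0.00242), where the treatments overlapped, and in control cells (-0.75, SE 0.12, adjusted p = 1.2e-06).

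**Figure D4:**
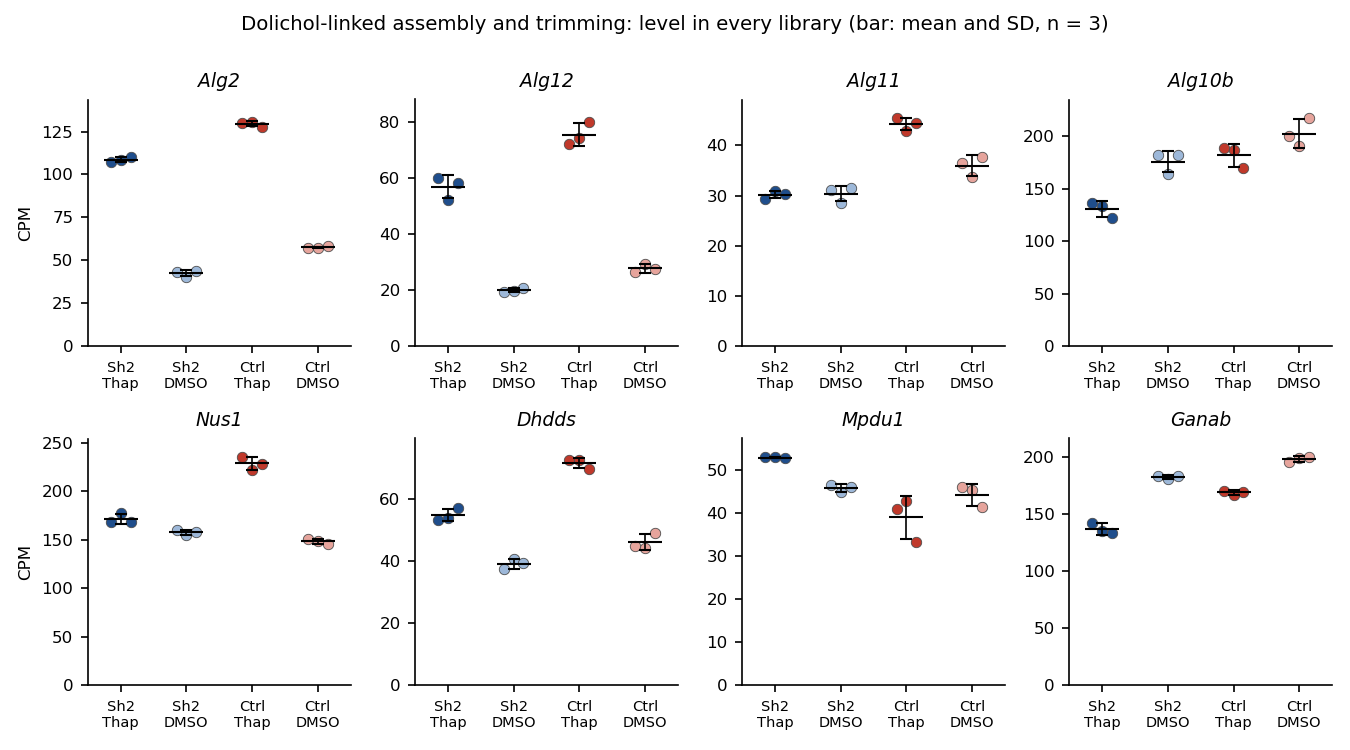
Level in CPM (linear axes from 0) of 7 genes of dolichol-linked assembly and of the trimming gene Ganab in every library, with Sh2-Thap, Sh2-DMSO, Ctrl-Thap and Ctrl-DMSO from left to right; points are libraries and bars the mean with SD (n = 3). Alg2 and Alg12 are high in both thapsigargin groups, Nus1 and Alg11 are highest in Ctrl-Thap, Mpdu1 is highest in Sh2-Thap, and Alg10b and Ganab are lowest in Sh2-Thap.

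The trimming genes did not all change in the same direction. Mogs, glucosidase I, removes the outermost glucose. It stood at 125, 126 and 131 CPM in Sh2-Thap and 90.8, 98.7 and 91.2 CPM in Sh2-DMSO libraries, and at 133, 129 and 138 CPM in Ctrl-Thap and 97.2, 105 and 101 CPM in Ctrl-DMSO libraries. The treatments were apart and the populations overlapped. Mogs rose in knockdown cells (log2 change 0.44, SE 0.05, adjusted p = 4.49e-10) and in control cells (0.40, SE 0.05, adjusted p = 1.89e-09). Ganab and Prkcsh are the catalytic and the regulatory subunit of glucosidase II, which removes the remaining glucoses. Ganab stood at 142, 135 and 133 CPM in Sh2-Thap and 183, 180.4 and 183 CPM in Sh2-DMSO libraries, and at 170.3, 167 and 169 CPM in Ctrl-Thap and 196, 199 and 199.7 CPM in Ctrl-DMSO libraries. No 2 groups overlapped. Ganab fell in knockdown cells (-0.42, SE 0.04, adjusted p = 1.37e-10) and in control cells (-0.23, SE 0.04, adjusted p = 7.84e-06), and was lower in knockdown cells under thapsigargin (-0.31, SE 0.04, adjusted p = 1.43e-07). In DMSO its call (-0.12, SE 0.04, adjusted p = 0.0155) was lost without Ctrl-DMSO replicate 2 (-0.10, adjusted p = 0.0634). The effects differed (-0.19, SE 0.06, adjusted p = 0.0125), but not with library totals only (-0.03, adjusted p = 0.74).

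Prkcsh stood at 172, 174 and 174 CPM in Sh2-Thap and 183, 204 and 181 CPM in Sh2-DMSO libraries, and at 165, 171 and 180.1 CPM in Ctrl-Thap and 152, 149.9 and 149.5 CPM in Ctrl-DMSO libraries. The Ctrl-DMSO libraries were lowest and the Sh2-DMSO libraries highest. Prkcsh rose with thapsigargin in control cells (log2 change 0.19, SE 0.05, adjusted p = 0.000349) and was higher in knockdown cells in DMSO (0.33, SE 0.05, adjusted p = 3.16e-07), and the effects differed (-0.32, SE 0.07, adjusted p = 0.000211). Under thapsigargin the populations overlapped (0.01, 95% interval -0.09 to 0.12). Its fall in knockdown cells (-0.12, SE 0.05, adjusted p = 0.0182) was lost without Sh2-DMSO replicate 2 (-0.07, adjusted p = 0.167) and with library totals only (-0.00, adjusted p = 0.953). Under thapsigargin Ganab and Prkcsh, subunits of 1 enzyme, thus moved in opposite directions in control cells.

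Levels between genes were compared as CPM per kb of annotated exon. In Ctrl-DMSO libraries the trimming genes led, with 36.3 ± 0.4199 for Ganab, 35.1 ± 0.242 for Prkcsh and 34.9 ± 1.29 CPM per kb for Mogs (SD, n = 3), and Prkcsh and Mogs did not differ beyond their spread. Alg10b at 30.5 ± 2.03 and Nus1 at 30.5 ± 0.493 CPM per kb followed, equally close. Gfpt1 had 13.6 ± 1.35 CPM per kb in Ctrl-DMSO libraries and 30.9 ± 0.132 in Ctrl-Thap libraries, while Gfpt2 had 0.0602 ± 0.0256 and 0.493 ± 0.0943. At the low end, above Gfpt2 and the lowest, Gnpnat1 at 0.0325 ± 0.0358, were Alg6 at 1.21 ± 0.105 and Dpm1 at 0.373 ± 0.0422 CPM per kb. Other genes cover 92.3% of the principal transcript of Gnpnat1 and 39% of that of Dpm1. The counts of both may leave out shared reads, so their low places are uncertain. The order depends on the length used. Over the median length of a gene's annotated transcripts, Gfpt1 took the next place after Ganab, at 109 against 195 CPM per kb in Ctrl-DMSO libraries.

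The steps that follow were read from further gene lists, whose counts stand beside 35.4% that rose and 34.4% that fell of all genes in knockdown cells, 37.7% and 37% in control cells, and 28.4% lower and 28.5% higher with the knockdown under thapsigargin. Of 12 genes of the oligosaccharyltransferase, which moves the finished oligosaccharide onto proteins, 7 rose and 4 fell with thapsigargin in knockdown cells, and 8 rose and 2 fell in control cells (median log2 change 0.18 and 0.46). Stt3a, a catalytic subunit, rose in both (0.41 and 0.90), while changes in the list ran from -0.47 to 0.54 and from -0.47 to 0.94. Under thapsigargin 10 of the 12 were lower in knockdown than in control cells and none higher (median -0.50). Of 11 genes of the lectin folding cycle and ER mannosidases, 9 rose and 1 fell in knockdown cells, and 10 rose and 1 fell in control cells (median 0.49 and 0.66). The largest change in knockdown cells was that of Engase, a cytosolic enzyme that cleaves N-glycans (1.30 in knockdown and 0.72 in control cells). The largest in control cells were those of Edem1, which takes misfolded glycoproteins to degradation (1.07 in knockdown and 1.997 in control cells), and Calr, calreticulin (0.93 in knockdown and 1.63 in control cells). Under thapsigargin 10 of the 11 were lower in knockdown cells (median -0.31). Of 11 genes that use or salvage hexosamines, 6 rose and 2 fell in knockdown cells, and 4 rose and 5 fell in control cells. The control-cell rises were close to that background. Oga, which removes O-linked N-acetylglucosamine from proteins, rose (1.41 in knockdown and 1.23 in control cells), whereas Ogt, which adds it, fell (-0.77 and -0.30).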

How the data were processed

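Poly(A) RNA of 12 libraries was sequenced, 3 in each of 4 groups taken from the sample titles. Per the submitters' processing notes, the authors used Trim Galore, STAR 2.5.3a, bedtools 2.31.0 and DESeq2 and named the mm10 and hg38 builds. The deposited values are raw read counts per gene, with 13.32% to 14.61% of reads in 5 entries that name no gene, left out here. For the counter, annotation release and strand, nothing was given in the sources used here. Overlapping and antisense genes are therefore uncertain. Of 53801 identifiers, 53706 matched GENCODE vM21 (GRCm38).

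The members and lists were chosen with earlier results of these data known. Counts were tested with edgeR 4.0.16 (R 4.3.3): its filter for low counts, TMM, robust quasi-likelihood fits of the 4 groups with 8 residual degrees of freedom, a common biological coefficient of variation of 4.67%, and Benjamini-Hochberg adjustment over 15828 genes, with calls under 0.05. The SE is the absolute log2 change over the square root of F and is approximate; 95% intervals use it. Libraries held 29.42 to 47.72 M gene reads. CPM use library totals multiplied by TMM factors (0.967 to 1.073). Values in every library are given for 25 members: the largest change of each role, members called in the difference of effects or changed by at least 1 by the knockdown, and members that moved against most of their role. Of the further lists only some genes are named, which are not always those with the largest changes. The fits were tested on simulated data. Few genes were changed in these, as many up as down, so they do not bear on the choice of scaling. Alternatives were other scalings (library totals only, upper quartile, DESeq2's size factors), filters and thresholds, DESeq2 1.42.0, limma-voom 3.58.1, only the compared groups, a replicate block and leaving out each library. Other software was Python 3.11.15, pandas 2.3.3 and matplotlib 3.10.9.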

Additional observations from a re-analysis of the deposited data

Results flagged for a closer look

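For 12 members the log2 change with thapsigargin in knockdown cells differed from that in control cells by the test of the difference itself (edgeR's quasi-likelihood test with Benjamini-Hochberg adjustment, 3 libraries in each of 4 groups). The difference, knockdown minus control, was -1.45 for Gfpt2 and -0.51 for Gfpt1, the 2 forms of the amidotransferase that opens the hexosamine pathway. It was -0.34 for Pgm3 of the same pathway. Among the carrier and assembly genes it was -0.51 for Nus1, -0.31 for Alg11, -0.27 for Alg10b and -0.21 for Alg5. For the mannose branch gene Pmm1 it was -0.42, and for the glucosidase II subunits Prkcsh and Ganab -0.32 and -0.19. The change was higher in knockdown cells for Mpdu1 (0.39) and Alg2 (0.19). With library totals as the only scaling, the differences of Alg5, Alg11, Alg10b, Pgm3 and Ganab did not pass.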

How the results depend on the processing

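No called change of a member reversed under any alternative. Of the counts of members called, 4 moved by more than 1.5 times in a full set of libraries. With library totals only, 6 members fell with thapsigargin in knockdown cells in place of 10, and the effect was higher in knockdown cells for 11 members in place of 2 and lower for 5 in place of 10. At a threshold of 0.01 it was higher for 1. The median log2 change of all genes under library totals only was 0.12 for thapsigargin in knockdown cells, in place of 0.001. It was 0.149 for the knockdown under thapsigargin, in place of 0.016, and 0.171 for the difference of effects, in place of 0.013. For that difference 5205 genes were called higher and 1684 lower, in place of 2794 and 2804. The cause of the shift was not tested. Leaving out each library gave 1 to 3 members higher and 8 to 10 lower for the difference of effects. It gave 13 to 15 and 8 to 11 for thapsigargin in knockdown cells, 16 to 18 and 9 to 13 in control cells, 5 to 6 and 17 to 19 for the knockdown under thapsigargin, and 4 to 5 and 15 to 17 in DMSO. Without 1 library, calls were gained for Alg6, Alg8, Mogs and Dpm3 (knockdown in DMSO), Alg5 and Alg13 (thapsigargin in knockdown cells) and Dhdds, Srd5a3, Alg13 and Gnpnat1 (difference of effects). Same-numbered replicates correlated by -0.06 to 0.222 in their deviations from the group means, and different-numbered ones by -0.25 to 0.233. For thapsigargin in control cells these ranges were 0.072 to 0.098 and -0.065 to -0.014, and in the other comparisons they overlapped. Whether a number marks a shared day or culture cannot be told from these values. The replicate block gave 17 members lower in DMSO in place of 15 (Alg8 and Mogs gained) and left the other counts as they were. Gnpnat1 and Gfpt2 had the fewest reads and the largest SEs.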

Other observations

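The counts below stand beside 35.4% that rose and 34.4% that fell of all genes with thapsigargin in knockdown cells, and 37.7% and 37% in control cells. Of 14 genes of the Golgi enzymes that remodel N-glycans, 2 rose and 12 fell with thapsigargin in knockdown cells, and 2 rose and 12 fell in control cells (median log2 change -0.67 and -0.75, beside 0.00 over all genes). The genes that rose were Mgat4a (1.92 and 1.87) and Mgat2 (0.80 and 1.15), which add branching N-acetylglucosamines. Mgat5, which adds another branch, fell (-1.21 and -1.52), as did the mannosidase gene Man2a2 (-1.46 and -1.47). Their summed level was 866 ± 12.1 CPM in Sh2-Thap and 1109 ± 14.4 CPM in Sh2-DMSO libraries, and 983 ± 5.44 CPM in Ctrl-Thap and 1223 ± 15.9 CPM in Ctrl-DMSO libraries (SD, n = 3 each).

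Upstream of dolichol, 7 genes of the mevalonate and isoprenoid steps had a median log2 change of -0.80 with thapsigargin in knockdown cells, where none rose and 4 fell, and of -0.14 in control cells, where 1 rose and 3 fell. Under thapsigargin 6 of the 7 were lower in knockdown than in control cells and 1 was higher, against 28.4% and 28.5% of all genes. Fdps, which makes farnesyl diphosphate, the primer of the dolichol chain, had the largest difference (-2.04). Of 8 other genes that use dolichol phosphate mannose, 1 rose and 4 fell with thapsigargin in knockdown cells, and 2 rose and 4 fell in control cells. Their log2 changes ran from -1.17 to 3.16 in knockdown cells and from -1.5 to 4.09 in control cells. Of 13 genes that make or use related hexose phosphates and nucleotide sugars, 2 rose and 6 fell in knockdown cells, and 4 rose and 6 fell in control cells. Among them Hk2, a hexokinase, fell in knockdown cells (-0.17) and rose in control cells (1.24), and the effects differed (-1.41, SE 0.06, adjusted p = 5.87e-18, edgeR's quasi-likelihood test with Benjamini-Hochberg adjustment).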
